A study of Mus musculus with 6 samples.

Results

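The 10 genes described here are markers of microglia and of blood vessel endothelium, which are rare among the cells of the hippocampus. They were taken by name as a fixed list, with 5 genes for microglia (Cx3cr1, Csf1r, Aif1, Itgam and P2ry12) and 5 for endothelium (Pecam1, Cldn5, Tek, Flt1 and Kdr). All 10 were found among the 37273 genes, 22367 of them protein-coding, of the GENCODE annotation of the mouse genome build mm9 (NCBIM37). The list rests on known cell types and no threshold on these reads, but it was drawn up with earlier results of these data known.

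Microglia are the resident macrophages of the brain. They depend on signalling through the receptor Csf1r, whose ligands are Csf1 and Il34, and they sense neurons and injured cells through the fractalkine receptor Cx3cr1, whose ligand is Cx3cl1, and the ADP receptor P2ry12. Endothelial cells line the vessels. They respond to the vascular endothelial growth factors through the receptor tyrosine kinases Kdr and Flt1 and to the angiopoietins through Tek, and their tight junctions, which contain Cldn5, form the blood-brain barrier. Acetylation of lysine 5 of histone H4 (H4K5ac) is a mark of open and transcribed chromatin.

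Chromatin came from the hippocampus of C57/BL6 mice aged 6 months. In the FC group, mice were trained by contextual fear conditioning, in which a chamber is paired with a foot shock. The paper describes repeated training and a later memory test before the tissue was taken. In the CON group, mice were placed in the same context and received no shock. Each group had 1 library from chromatin immunoprecipitated with an antibody to H4K5ac, 1 mock library precipitated with IgG (IgG-IP) and 1 library of genomic DNA without precipitation (input), which makes 6 libraries without replicates. The paper describes several hippocampal samples per group, and the labels do not say how many of them a library holds. The intervals given below are 95% intervals of counting error. They compare single libraries and say nothing of the spread between animals, so no test of FC against CON was possible. The whole hippocampus was used, in which fewer cells of a type and less signal per cell cannot be told apart.

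The libraries held 14549689 to 45673239 aligned reads, with both IgG-IP libraries the shallowest. Read density is given as RPKM, reads per kilobase of interval for every 1000000 aligned reads of the library. A gene body ran from the first transcription start site (TSS) to the last termination site and a promoter was the 5 kb upstream of that first TSS. Promoter values and sequences thus leave out the further annotated start sites of genes with several, such as Aif1 with 6 in all and Itgam with 8. A gene was called higher or lower where its depth-scaled densities differed by 1.5 fold or more, a log2 ratio of 0.585 or more on either side of 0. Input was denser in FC than in CON over many genes, with a median log2 ratio of 0.31 over 20883 protein-coding gene bodies. Of the 10 genes 3 had denser input in FC by 1.5 fold (23.6% of protein-coding genes did) and 0 had less dense input (4.89%). Ratios to input carry this difference between the groups.

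Promoter sequences are shown for the genes with the highest and the lowest promoter ratio of H4K5ac over input in each cell type, by the mean of FC and CON, since these show how differently the 10 promoters are built. The sequences are the 200 bases upstream of the TSS in mm9, read 5′ to 3′ on the strand of the gene, with CG dinucleotides in capitals. Aif1 lies at chr17:35313014-35313213 on the minus strand and Itgam at chr7:135205954-135206153 on the plus strand. Kdr lies at chr5:76374484-76374683 and Flt1 at chr5:148537588-148537787, both on the minus strand.
Aif1: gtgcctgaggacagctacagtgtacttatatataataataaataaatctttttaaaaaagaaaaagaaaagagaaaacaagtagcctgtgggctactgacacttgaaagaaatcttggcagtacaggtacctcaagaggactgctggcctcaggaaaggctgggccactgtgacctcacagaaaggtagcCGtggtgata
Itgam: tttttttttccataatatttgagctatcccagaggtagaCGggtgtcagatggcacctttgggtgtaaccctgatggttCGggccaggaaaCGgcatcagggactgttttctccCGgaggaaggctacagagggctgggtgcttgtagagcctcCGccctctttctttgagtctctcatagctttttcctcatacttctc
Kdr: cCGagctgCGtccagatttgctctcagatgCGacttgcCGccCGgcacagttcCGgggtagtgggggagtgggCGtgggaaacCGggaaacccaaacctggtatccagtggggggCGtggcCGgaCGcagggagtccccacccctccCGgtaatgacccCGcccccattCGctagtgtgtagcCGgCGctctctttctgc
Flt1: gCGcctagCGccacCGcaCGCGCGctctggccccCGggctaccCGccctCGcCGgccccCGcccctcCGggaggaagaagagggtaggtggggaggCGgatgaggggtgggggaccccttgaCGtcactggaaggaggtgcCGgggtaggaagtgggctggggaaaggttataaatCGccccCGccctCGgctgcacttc

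The microglial promoters were poor in CG dinucleotides. Over the 300 bases upstream of the TSS, the ratio of observed to expected CG was 0.07 for Aif1, 0.06 for Csf1r, 0.17 for P2ry12, 0.20 for Cx3cr1 and 0.31 for Itgam. The median of 22361 protein-coding genes was 0.48. Endothelial promoters were of both kinds, with 0.68 for Flt1, 0.62 for Kdr and 0.51 for Cldn5 above that median, and 0.30 for Pecam1 and 0.11 for Tek below it. Short motifs were searched on both strands of these 300 bases, where a match to one motif may overlap a match to another. GAGGAA, the core bound by the myeloid factor PU.1, occurred 2 times in Itgam and 1 time each in Pecam1 and Flt1, and 26.9% of all promoters held it. GGGCGG, the GC box, occurred 3 times in Flt1, 2 times in Kdr and 1 time each in Cldn5 and Itgam, against 40.9% of all promoters. TATAAA occurred 1 time each in Pecam1 and Flt1 (14.6% of all promoters), CCGGAA, an ETS core, 1 time in Kdr (15.1%), and TGACTCA, the AP-1 site, 1 time in Csf1r (4.5%). A match is a description of the letters and no binding was measured.

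**Figure D1:**
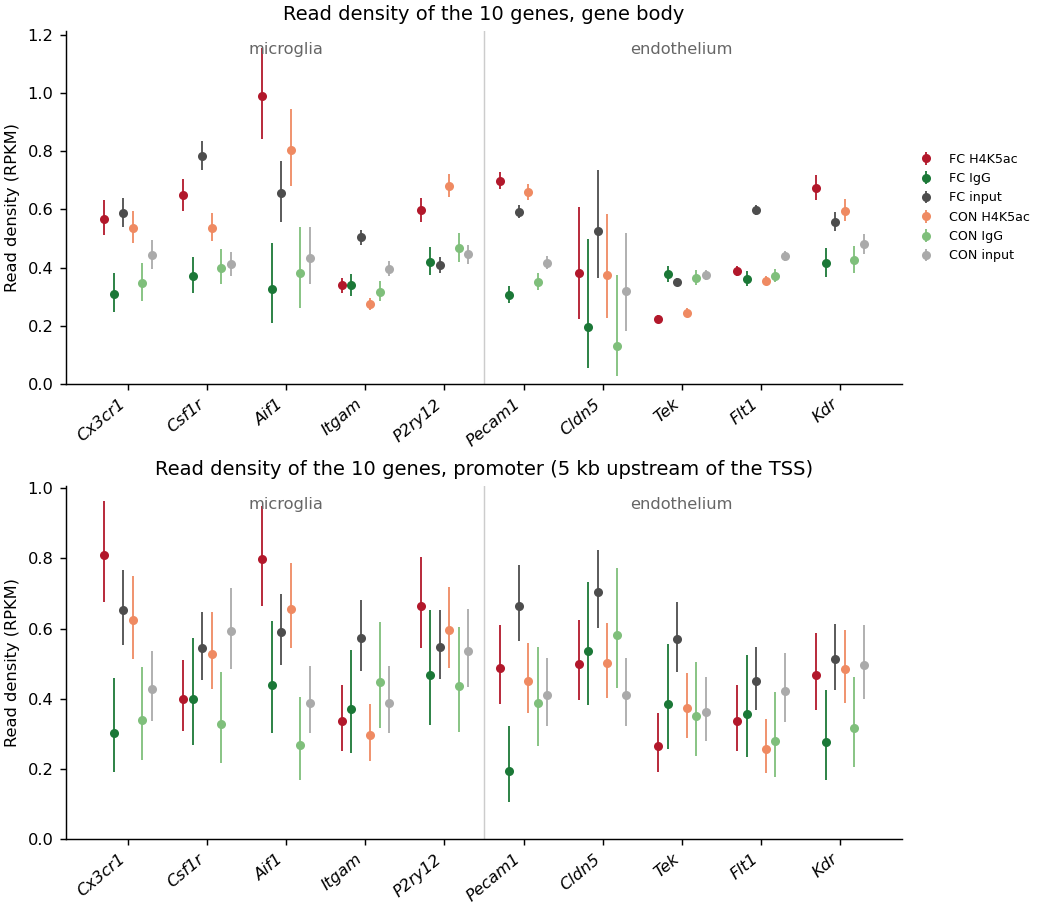
Read density in RPKM (y axis) of the 10 genes (x axis) in each of the 6 libraries, for gene bodies (top) and promoters (bottom). Points are single libraries and bars are exact 95% Poisson intervals. Aif1 had the densest H4K5ac gene body, at 0.991 RPKM in FC and 0.805 in CON, and Tek the least dense, at 0.222 and 0.245.

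Among the microglial gene bodies, Aif1 and P2ry12 stood above input in both groups, Itgam stood below input in both, and Cx3cr1 and Csf1r lay between them. Aif1 encodes Iba1, the calcium-binding protein used to stain microglia. Its H4K5ac density was 0.991 RPKM in FC and 0.805 in CON, its IgG-IP density 0.325 and 0.382, and its input density 0.655 and 0.433. H4K5ac was the densest of the 3 kinds of library in each group. H4K5ac over input gave log2 ratios of 0.60 (0.27 to 0.93) for FC and 0.90 (0.49 to 1.31) for CON, with 159 and 147 H4K5ac reads in a gene of 5.08 kb.

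P2ry12 encodes the purinergic receptor that directs microglial processes to ADP. It had 0.597 RPKM of H4K5ac in FC and 0.681 in CON, against 0.407 and 0.445 in input and 0.421 and 0.467 in IgG-IP. H4K5ac was above both controls in each group, with log2 ratios to input of 0.55 (0.42 to 0.69) in FC and 0.61 (0.48 to 0.75) in CON. P2ry12 lies on chromosome 3 wholly within Med12l, a protein-coding gene on the opposite strand that also covers 100% of the P2ry12 promoter, and reads do not tell the strands apart.

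Cx3cr1, the fractalkine receptor, had 0.569 RPKM of H4K5ac in FC and 0.537 in CON, 0.588 and 0.443 in input, and 0.309 and 0.347 in IgG-IP. H4K5ac was near input in FC (log2 ratio -0.05, -0.25 to 0.15) and slightly above it in CON (0.28, 0.06 to 0.50). Csf1r, the receptor on which microglial survival depends, had 0.649 and 0.538 RPKM of H4K5ac in FC and CON, 0.785 and 0.411 in input, and 0.370 and 0.399 in IgG-IP. The ratio to input was below 0 in FC (-0.28, -0.43 to -0.12) and above 0 in CON (0.39, 0.19 to 0.58). This change of sign came with input, which was denser in FC by a log2 ratio of 0.93 (0.76 to 1.11), further than 95.9% of protein-coding genes, while H4K5ac was denser in FC by 0.27 (0.09 to 0.45).

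Itgam encodes CD11b, the integrin subunit of complement receptor 3. Its H4K5ac density was 0.339 RPKM in FC and 0.275 in CON, against 0.504 and 0.397 in input and 0.339 and 0.317 in IgG-IP. H4K5ac was thus below input in both groups, by log2 ratios of -0.57 (-0.70 to -0.44) and -0.53 (-0.68 to -0.38), and in FC it did not differ from IgG-IP beyond counting error (log2 ratio between -0.19 and 0.19). In CON it was below IgG-IP (-0.21, -0.40 to -0.02).

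The endothelial genes also differed among themselves, from -0.66 to 0.28 in FC and from -0.62 to 0.67 in CON. Pecam1, the adhesion molecule CD31 of endothelial junctions, had 0.699 RPKM of H4K5ac in FC and 0.661 in CON, 0.593 and 0.416 in input, and 0.306 and 0.350 in IgG-IP. The gene stood above input in both groups, by 0.24 (0.15 to 0.32) in FC and 0.67 (0.57 to 0.76) in CON, on 2130 and 2292 H4K5ac reads. Kdr, the main signalling receptor for vascular endothelial growth factor A, had 0.675 and 0.596 RPKM of H4K5ac, 0.558 and 0.480 in input, and 0.416 and 0.425 in IgG-IP. Its ratios to input, on the log2 scale, of 0.28 (0.15 to 0.40) and 0.31 (0.18 to 0.45) were close to each other.

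Flt1 and Tek were below input. Flt1 also binds vascular endothelial growth factor A and limits its action on Kdr. Flt1 had 0.387 RPKM of H4K5ac in FC and 0.354 in CON, against 0.598 and 0.439 in input and 0.362 and 0.372 in IgG-IP. The log2 ratios were -0.63 (-0.71 to -0.55) and -0.31 (-0.39 to -0.22), on 2009 and 2095 H4K5ac reads over 164 kb. Tek, the angiopoietin receptor Tie2, had 0.222 and 0.245 RPKM of H4K5ac, 0.350 and 0.376 in input, and 0.377 and 0.366 in IgG-IP. H4K5ac lay below both controls in each group, with log2 ratios to input of -0.66 (-0.77 to -0.54) and -0.62 (-0.72 to -0.51).

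Cldn5, the main claudin of the barrier, is a gene of 1 exon and 1.41 kb with too few reads to place. It held 17 H4K5ac reads, 4 IgG-IP reads and 34 input reads in FC, and 19, 3 and 16 in CON. The log2 ratios of -0.47 (-1.40 to 0.41) and 0.23 (-0.81 to 1.29) both included 0.

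In FC the order of the gene body ratio to input was Aif1, P2ry12, Kdr, Pecam1, Cx3cr1, Csf1r, Cldn5, Itgam, Flt1 and Tek. Neighbours in this order had overlapping intervals, except P2ry12 and Kdr, and Pecam1 and Cx3cr1. In CON the order was Aif1, Pecam1, P2ry12, Csf1r, Kdr, Cx3cr1, Cldn5, Flt1, Itgam and Tek, and the interval of every gene overlapped that of the next. In FC 1 of 10 was higher than input by 1.5 fold (22.9% of protein-coding genes were) and 2 were lower (19.7%). In CON 3 were higher (42.3%) and 1 was lower (16.7%). The median log2 ratio of the 10 was -0.16 in FC and 0.29 in CON, against 0.20 and 0.48 over all protein-coding genes. With ratios set to the median of all genes, 0 were higher and 4 were lower in FC (11.1% and 24.9% of protein-coding genes), and 0 and 3 in CON (11.6% and 26%). When each ratio was centred on genes with similar GC content, P2ry12 stood at 0.31 and 0.55 in FC and CON, Aif1 at 0.37 and 0.13, Pecam1 at 0.09 and 0.14 and Kdr at 0.11 and -0.08. The other 6 genes were below 0 in both groups, with Itgam at -0.74 and -0.93, Tek at -0.81 and -0.84 and Flt1 at -0.75 and -0.80.

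**Figure D2:**
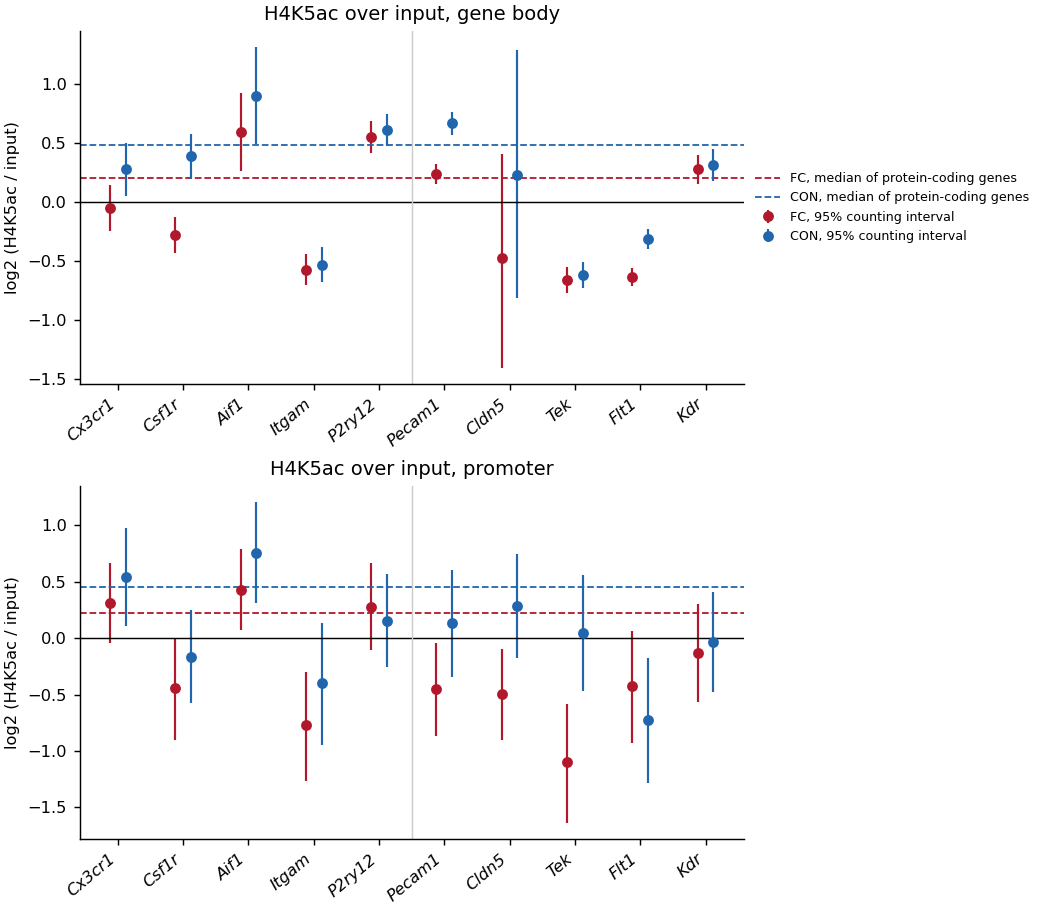
Depth-scaled log2 ratio of H4K5ac over input (y axis) for the 10 genes (x axis) in FC (red) and CON (blue), for gene bodies (top) and promoters (bottom). Bars are exact 95% binomial intervals of counting error and dashed lines are the medians of protein-coding genes, 0.20 in FC and 0.48 in CON for gene bodies. Itgam, Tek and Flt1 lie below 0 in both groups for the gene body, Aif1 and P2ry12 above it.

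The promoters held 42 to 128 H4K5ac reads each, so their intervals were wide. Aif1 was the highest, with 126 H4K5ac and 135 input reads in FC and 118 and 69 in CON, which gave log2 ratios of 0.43 (0.07 to 0.79) and 0.76 (0.31 to 1.21). Cx3cr1 followed with 0.31 (-0.04 to 0.66) and 0.54 (0.11 to 0.98). P2ry12 was at 0.28 and 0.15, with both intervals including 0. Centred on genes with similar GC content the order changed, with P2ry12 at 0.27 and 0.30, Aif1 at 0.18 and 0.16 and Cx3cr1 at 0.05 and -0.22. Itgam was low at the promoter as in the gene body, at -0.77 (-1.26 to -0.30) in FC and -0.40 (-0.94 to 0.14) in CON. Csf1r had -0.45 and -0.16, and neither interval excluded 0.

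At the 5 endothelial promoters no log2 ratio exceeded 0.28, that of Cldn5 in CON, and their medians were -0.45 in FC and 0.05 in CON. The promoters of 21 further endothelial genes had medians of 0.26 and 0.50, with 7 and 8 higher than input by 1.5 fold (33.3% and 38.1%). Flt1 was at -0.43 (-0.93 to 0.06) in FC and -0.72 (-1.29 to -0.18) in CON, although its upstream sequence was the richest in CG of the 10. Kdr, whose upstream sequence was also rich in CG, was near 0 in both groups, at -0.13 and -0.04. Tek went from -1.10 (-1.64 to -0.59) in FC, with 42 H4K5ac and 130 input reads, to 0.05 (-0.47 to 0.56) in CON, with 67 and 64. Between FC and CON its input differed by a log2 ratio of 0.66 (0.22 to 1.11) and its H4K5ac by -0.49 (-1.08 to 0.09). Pecam1 (-0.45 and 0.13) and Cldn5 (-0.50 and 0.28) also had lower ratios to input in FC, and for Pecam1 the interval of the difference included 0 (-1.19 to 0.02). Their input was denser in FC by 0.69 and 0.78, and their H4K5ac differed by 0.11 (-0.36 to 0.58) and -0.0018 (-0.46 to 0.45). Over IgG-IP the Pecam1 promoter had the higher ratio in FC, by 1.13 (0.11 to 2.14). It held 14 IgG-IP reads in FC and 32 in CON, against 77 and 81 H4K5ac reads. Gm885, a protein-coding gene on the opposite strand, covers 88.5% of the Pecam1 promoter. In all, 0 of 10 promoters were higher than input by 1.5 fold in FC (29.3% of protein-coding genes were) and 2 were lower (21.3%). In CON 1 was higher (43.2%) and 1 was lower (20.1%). With a promoter of 2 kb, 1 was higher and 3 were lower in FC (43.1% and 18.4%), and 4 and 1 in CON (53.5% and 18.1%). With ratios set to the median of all genes, 0 were higher and 6 were lower in FC (16.7% and 27.2% of genes), and 0 and 3 in CON (17.3% and 28.9%).

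Against IgG-IP, the control that the study used, the gene bodies of Aif1 and Pecam1 were again high and that of Tek was again the lowest. In FC 6 of 10 gene bodies were higher by 1.5 fold (56.2% of protein-coding genes were) and 1, Tek, was lower (13%). In CON 4 were higher (51.9%) and 0 were lower (13.4%). The medians of all genes were 0.71 and 0.61, and relative to them 1 gene body was higher and 3 were lower in each group (20.1% and 25.9% of genes in FC, 15.3% and 25.2% in CON). The higher gene was Aif1 in FC, and in CON it was Cldn5, on 19 H4K5ac and 3 IgG-IP reads. Aif1 stood at 1.61 (0.98 to 2.29) in FC and 1.07 (0.52 to 1.67) in CON, Pecam1 at 1.19 (1.04 to 1.35) and 0.92 (0.78 to 1.06), and Tek at -0.76 (-0.90 to -0.62) and -0.58 (-0.71 to -0.45). Flt1 was near 0 in both groups, at 0.10 (-0.02 to 0.21) and -0.07 (-0.18 to 0.04). At the promoters 4 of 10 were higher than IgG-IP in FC (53.9%) and 4 in CON (49.8%), and 0 and 1 were lower (17.8% and 18.7%). Relative to the medians of all genes 2 promoters were higher and 5 lower in FC (23.8% and 30.1%), and 1 and 3 in CON (21.1% and 29.8%). Cx3cr1 led in FC at 1.42 (0.76 to 2.15) and Aif1 in CON at 1.30 (0.63 to 2.03). Centred on genes with similar GC content, 0 gene bodies and 0 promoters were higher than IgG-IP by 1.5 fold in either group (14% and 12% of gene bodies and 21.4% and 19.6% of promoters were, in FC and CON). P2ry12 was then the highest gene body in each group, at 0.40 in FC and 0.37 in CON, and its promoter stood at 0.55 and 0.51. Aif1 stood at 0.37 and 0.075 in the gene body and Pecam1 at 0.34 and 0.23.

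The controls were not alike at these genes. IgG-IP was lower than input by 1.5 fold at 6 of 10 gene bodies in FC (43.6% of protein-coding genes were) and at 1 in CON (6.32%), and higher at 0 in both (6.22% and 2.29%). The 1 in CON was Cldn5, on 3 IgG-IP and 16 input reads, fewer than the 20 reads that genes behind the share had to have. Csf1r had the log2 ratio of IgG-IP over input that differed most between the groups, -1.09 (-1.35 to -0.83) in FC and -0.04 (-0.31 to 0.22) in CON. P2ry12 and Tek, which have the lowest GC content of the 10 gene bodies at 39.6% and 41.1%, were near 0 in both, at 0.05 and 0.07 for P2ry12 and 0.11 and -0.04 for Tek.

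Around the TSS, the average protein-coding gene had its densest H4K5ac in the bin centred 750 bp upstream, at 0.707 RPKM in FC and 0.672 in CON, and was lower again at the TSS itself. The 5 endothelial genes had 0.557 and 0.345 RPKM in that bin, against 0.648 and 0.282 in input. The 5 microglial genes had 0.494 and 0.601, against 0.560 and 0.440 in input, and their mean profile in FC was densest, at 1.01 RPKM, in the bin centred 3250 bp downstream, where CON had 0.656 and Aif1 gave 32 of the FC reads. With 5 genes a profile, single bins rest on few reads and no peak was read from them.

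**Figure D3:**
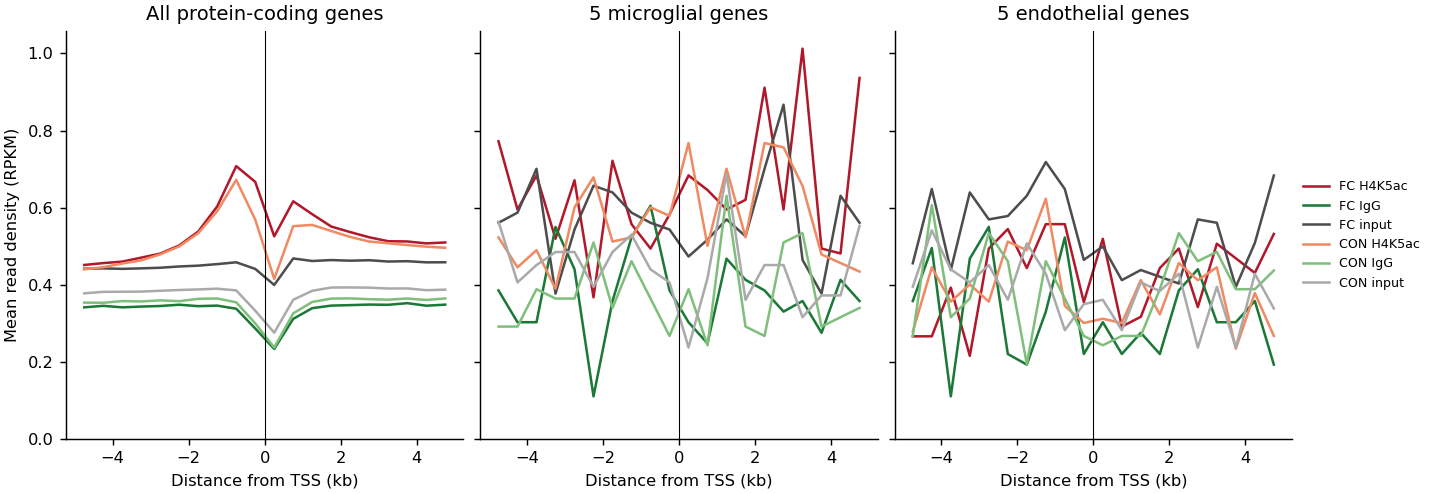
Mean read density in RPKM (y axis) in bins of 500 bp by distance from the TSS in kb (x axis, gene direction left to right) for all protein-coding genes, left, the 5 microglial genes, middle, and the 5 endothelial genes, right, with 1 line for each library. For all genes the 1% with the most reads in a bin was left out. The H4K5ac lines of all genes reach 0.707 and 0.672 RPKM at 750 bp upstream, and the lines of the microglial and endothelial genes scatter from bin to bin.

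Along each gene the 1 kb window with the highest pooled ratio of H4K5ac over input was located among windows with at least 10 input reads over both groups together, as a description, since a maximum is high by choice. In P2ry12 it lay across the TSS, from 500 bp upstream to 500 bp downstream, with 26 H4K5ac and 15 input reads in FC and 41 and 9 in CON. The log2 ratios there were 1.32 and 2.17. In Aif1 it lay 3000 to 4000 bp from the TSS, with its centre 63 bp from another annotated TSS of Aif1, with 45 H4K5ac and 24 input reads in FC and 28 and 3 in CON, and the log2 ratios were 1.44 and 3.20. Pecam1 had its window in an intron 75000 to 76000 bp from the TSS, with 69 and 63 H4K5ac reads against 36 and 15 in input and log2 ratios of 1.47 and 2.05. The window of Cx3cr1 lay 12500 to 13500 bp from the TSS (1.14 and 1.17) and that of Kdr 35500 to 36500 bp from it (1.44 and 1.46). The pooled ratios of the other 5 windows were lower, from 0.60 for Tek to 1.00 for Itgam. No interval is given for these values, which were chosen on the same reads.

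The ratio of H4K5ac over input was also uneven over the length of the long genes, each divided into 5 parts of equal length numbered from the TSS. In Flt1, part 1 was the lowest, at -1.02 (-1.21 to -0.83) in FC and -0.91 (-1.13 to -0.70) in CON, and part 5 was at -0.46 (-0.63 to -0.30) and 0.05 (-0.13 to 0.23). Kdr went in FC from -0.19 (-0.49 to 0.11) in part 1 to 0.68 (0.43 to 0.93) in part 5, which in CON were 0.29 and 0.35. Itgam had its highest value in part 3, at 0.36 (0.04 to 0.68) in FC and -0.12 (-0.47 to 0.23) in CON, and part 5 was at -1.15 and -0.62. In FC part 3 stood out by its input, with 178 reads against 292 to 356 in the other parts, and H4K5ac itself had the most reads in part 4, with 162 in FC and 172 in CON. Tek was below input in all 5 parts, from -0.83 up to -0.44 in FC and from -1.04 up to -0.44 in CON.

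Each gene body was also set against its own flanks, 5 to 25 kb upstream of the TSS and 20 kb past the end of the gene, in a comparison added after the data were seen. Other genes in the flanks were not left out. The flank past the end of Csf1r lies within Hmgxb3, another protein-coding gene, and Gm885 reaches into the flank upstream of Pecam1. Pecam1 was above its flanks in both groups, by a log2 difference of 0.23 (0.07 to 0.39) in FC and 0.36 (0.19 to 0.54) in CON. Flt1 was below them in both, at -0.24 (-0.41 to -0.06) and -0.30 (-0.49 to -0.11). For the other 8 genes the interval included 0 in at least 1 group. Aif1, the gene with the highest ratio, was not distinct from its neighbourhood, with differences of 0.22 (-0.12 to 0.57) and -0.10 (-0.52 to 0.33), and its flanks stood at 0.37 and 0.96. Tek differed from its flanks by 0.01 (-0.25 to 0.26) and -0.05 (-0.28 to 0.18), and the flanks were as low as the gene, at -0.66 and -0.56. P2ry12 differed from its own flanks by 0.12 (-0.08 to 0.33) in FC and -0.02 (-0.23 to 0.18) in CON, and both intervals included 0. Both of these flanks lie within Med12l. P2ry12 was above the rest of Med12l, of which they are a part, by 0.24 (0.09 to 0.38) in FC and 0.16 (0.01 to 0.30) in CON.

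**Figure D4:**
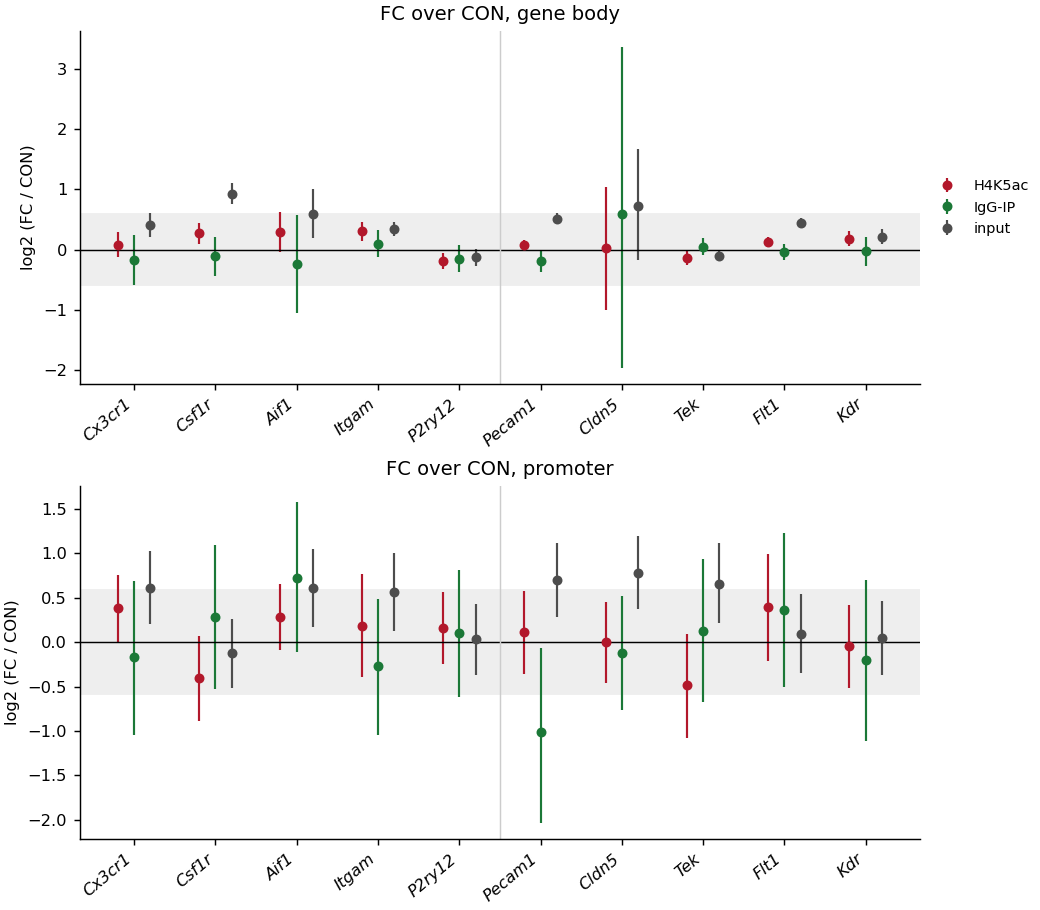
Depth-scaled log2 ratio of FC over CON (y axis) for the 10 genes (x axis) in H4K5ac (red), IgG-IP (green) and input (grey) libraries, for gene bodies (top) and promoters (bottom). Bars are exact 95% binomial intervals of counting error and the grey band marks differences under 1.5 fold. The H4K5ac points all lie inside the band, and the input of the Csf1r gene body lies above it at 0.93.

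The comparison of FC with CON asks whether fear conditioning, here repeated training followed by a memory test, changed the mark at these genes. Among H4K5ac libraries, 0 of 10 gene bodies were higher in FC by 1.5 fold (3.42% of protein-coding genes were) and 0 were lower (1.22%). The same held at the promoters, with 0 higher (4.88%) and 0 lower (2.75%). The log2 ratios of gene bodies ran from -0.19 to 0.30 with a median of 0.10, against 0.04 over all protein-coding genes. Itgam was higher in FC by 0.30 (0.15 to 0.46), Csf1r by 0.27 (0.09 to 0.45), Kdr by 0.18 (0.05 to 0.31) and Flt1 by 0.13 (0.04 to 0.21). P2ry12 was lower in FC, at -0.19 (-0.32 to -0.06), and so was Tek, at -0.14 (-0.27 to -0.02). The interval was thus above 0 for 4 of 10 genes (15.7% of protein-coding genes) and below 0 for 2 (9.92%), and whether it exceeds the spread between mice was not tested. Intervals narrow with more reads. The shares cover every gene with at least 20 reads, so these counts and shares are not matched for depth. Aif1 had 0.30 (-0.03 to 0.63), Cx3cr1 0.08 (-0.13 to 0.30), Pecam1 0.08 (-0.01 to 0.17) and Cldn5 0.03 (-1.01 to 1.05).

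The direction of these differences depended on the control. Input alone was denser in FC at 8 of 10 gene bodies (72.9% of protein-coding genes), with log2 ratios from -0.13 for P2ry12 to 0.93 for Csf1r. Less the input ratio, all 10 gene body values were negative, from -0.04 for Kdr to -0.70 for Cldn5, as were 72.7% of protein-coding genes, whose median was -0.25. Set against genes of similar GC content, 5 of the 10 were positive, namely Aif1 (0.23), Kdr (0.20), Itgam (0.20), Cx3cr1 (0.06) and Flt1 (0.03), and Cldn5 was the lowest at -0.31. Less the IgG-IP ratio, they ran from -0.57 for Cldn5 to 0.53 for Aif1, with Csf1r at 0.38 and Pecam1 at 0.27, against a median of 0.09 over all genes. P2ry12, at -0.06 (-0.25 to 0.13) less input and -0.04 (-0.29 to 0.22) less IgG-IP, and Tek, at -0.04 (-0.19 to 0.11) and -0.19 (-0.38 to 0.0013), had intervals that included 0 under both. So did Itgam, at -0.04 (-0.24 to 0.15) and 0.21 (-0.06 to 0.48), and Kdr, at -0.04 (-0.22 to 0.15) and 0.21 (-0.05 to 0.48). Csf1r, Flt1 and Pecam1 had intervals below 0 less input and above 0 less IgG-IP. Cx3cr1 had an interval below 0 less input, at -0.32 (-0.62 to -0.03), and one that included 0 less IgG-IP. For Aif1 and Cldn5 both intervals included 0. At the promoters Cx3cr1 had the only H4K5ac interval clear of 0, at 0.38 (0.0017 to 0.76), while its input was denser in FC by 0.61 (0.20 to 1.03). Of all promoters 8.37% had an interval above 0 and 3.62% one below 0.

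Other genes of the same cell types and pathways gave the scale, with the highest and lowest of each list named by the mean of FC and CON. Over all protein-coding genes 22.9% were higher in FC and 42.3% in CON, and 19.7% and 16.7% were lower. In 22 further microglial genes the median gene body ratio to input was -0.25 in FC and 0.10 in CON, with 3 and 5 genes higher by 1.5 fold (13.6% and 22.7%) and 7 and 2 lower. Gpr34, a microglial receptor for lysophosphatidylserine, was the highest at 2.02 (1.51 to 2.54) and 1.14 (0.72 to 1.57), although Cd68 (1.47) and Olfml3 (1.26) were above it in CON, and Cd33, a sialic acid receptor, the lowest at -1.36 (-1.83 to -0.91) and -0.75 (-1.22 to -0.29). In 22 further endothelial genes the medians were -0.02 and 0.14, with 6 higher in each group (27.3%) and 3 and 2 lower. Mfsd2a, the lipid transporter of barrier endothelium, had the highest mean, at 0.96 (0.76 to 1.17) and 1.16 (0.93 to 1.39), and Abcb1a, the drug efflux pump, the lowest, at -0.73 (-0.87 to -0.58) and -0.92 (-1.06 to -0.78). Of the 10 mural cell genes, with medians of -0.29 and 0.04, Cspg4 had the highest mean, at 0.65 and 1.02, and Kcnj8 the lowest, at -1.23 in each group.

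The ligands of these receptors, many of them made by other cells, had higher medians than the 10 genes. These were 0.23 in FC and 0.71 in CON, with 2 and 6 of 9 higher by 1.5 fold and 0 lower. Of protein-coding genes 22.9% and 42.3% were higher and 19.7% and 16.7% lower. Centred on genes with similar GC content, the ligand medians were -0.03 and 0.05. Csf1, the ligand of Csf1r, was the highest at 0.90 (0.75 to 1.05) and 1.29 (1.11 to 1.47), and its other ligand Il34 was at 0.23 (0.13 to 0.33) and 0.50 (0.39 to 0.62). Cx3cl1, the ligand of Cx3cr1, was at 0.35 (0.10 to 0.60) and 0.80 (0.50 to 1.10). Among the ligands of Flt1 and Kdr and their relatives, Vegfa was at -0.03 and 0.71, Vegfb at 0.68 and 1.02, Pgf at 0.31 and 0.99, and Vegfc at 0.03 and -0.22. Of the ligands of Tek, Angpt2 was at 0.09 and 0.67, and Angpt1 was the lowest of the 9 at -0.23 (-0.31 to -0.15) and -0.42 (-0.49 to -0.34). None of the 9 ligands differed between FC and CON H4K5ac by 1.5 fold, and Vegfc, at -0.33 (-0.46 to -0.21), differed most. Few protein-coding genes did, with 3.42% higher in FC and 1.22% lower.

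Of 5 receptors that work with the 10 genes or resemble them, Nrp2 and Nrp1, the neuropilins that bind vascular endothelial growth factors and that neurons also carry, were at 0.72 and 1.03 and at 0.44 and 0.56. Itgb2, the partner of Itgam in complement receptor 3, was at -0.04 (-0.18 to 0.09) and 0.48 (0.32 to 0.64), above Itgam in both groups. Tie1, the relative of Tek, was at -0.21 (-0.41 to -0.03) and 0.21 (-0.01 to 0.44), also above Tek. Flt4, the lymphatic relative of Kdr, was at -0.51 (-0.65 to -0.38) in FC and between -0.16 and 0.16 in CON.

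**Figure D5:**
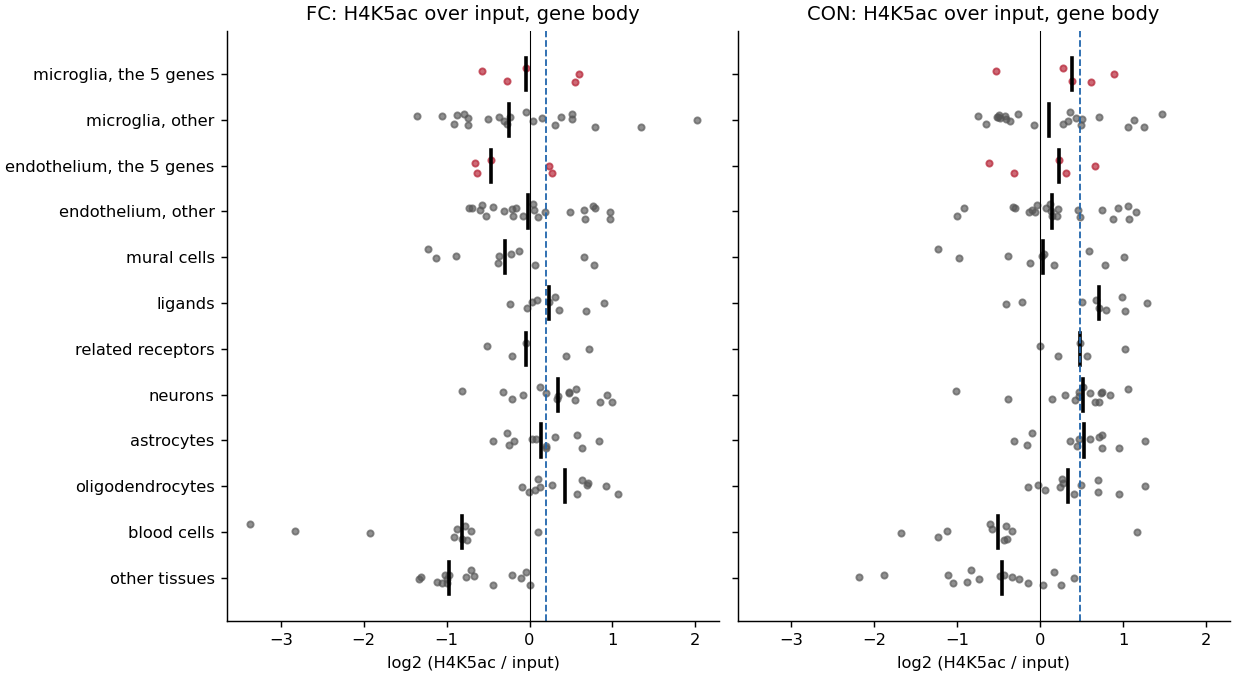
Depth-scaled log2 ratio of H4K5ac over input in the gene body (x axis) by gene list (y axis) in FC (left) and CON (right). Points are genes, with the 10 marker genes in red, black bars are list medians over genes with at least 20 reads in the pair of libraries, and the dashed line is the median of protein-coding genes, 0.20 in FC and 0.48 in CON. The blood and other-tissue lists lie lowest, and the neuron list lies at 0.35 and 0.51.

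Markers of the abundant cells gave medians of 0.35 in FC and 0.51 in CON for 15 neuronal genes, 0.14 and 0.54 for 12 astrocytic genes and 0.42 and 0.34 for 12 oligodendrocytic genes. By the mean of FC and CON the extremes were Map2 (0.94 and 0.85) and Neurod6 (-0.81 and -1.02) in neurons, S100b (0.84 and 1.26) and Gja1 (-0.18 and -0.32) in astrocytes, and Cnp (0.93 and 1.27) and Olig2 (-0.09 and -0.15) in oligodendrocytes. Genes of cells or tissues that the hippocampus should hold little of were lower, with medians of -0.82 and -0.50 for blood cells and -0.98 and -0.46 for other tissues. Cd79a (0.10 and 1.17) was by the same mean the highest blood gene and Hbb-b1, on 1 and 6 H4K5ac reads, the lowest, and Cela2a (-0.10 and 0.41) and Ins1 (7 and 4 H4K5ac reads) were the extremes of the other tissues. The medians of the 5 microglial genes were -0.05 and 0.39, and those of the 5 endothelial genes -0.47 and 0.23. With input as the control, these medians lay between those of the abundant brain cells and those of the other tissues in FC. The endothelial medians are the values of Cldn5, which rest on 17 and 19 H4K5ac reads, with intervals that included 0. In CON the microglial median lay above that of the oligodendrocyte genes, and below it after centring on genes with similar GC content (-0.25 against -0.17). So centred, the medians in FC and CON were -0.20 and -0.25 for the microglial genes, -0.75 and -0.48 for the endothelial genes, 0.04 and -0.01 for neurons, and -0.998 and -0.98 for other tissues. The centred endothelial median in CON is that of Cldn5. Over IgG-IP the order differed in FC, where the microglial median was 0.81, above neurons (0.78) and astrocytes (0.74) and below oligodendrocytes (0.85). In CON it was 0.54, against 0.76, 0.83 and 0.67 for the same lists. The endothelial medians over IgG-IP were 0.70 and 0.49, and those of other tissues -0.37 and -0.43. The microglial median in FC over IgG-IP is the value of Csf1r. Centred on genes with similar GC content, the microglial medians over IgG-IP were 0.03 in FC and -0.06 in CON. So centred, they were 0.09 and 0.20 for neurons, -0.11 and 0.09 for astrocytes and 0.30 and -0.03 for oligodendrocytes. No test of the difference between lists was made.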

How the data were processed

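Reads of up to 50 bp from a SOLiD instrument were mapped to mm9 by the authors, who used Bioscope and deposited 1 BED record per aligned read. The score in each deposited record, from 4 to 100, is a mapping quality set by the authors and is not a count. The records were not normalized. The authors also allowed reads with several mappings.

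From these records, reads overlapping a gene body or promoter by at least 1 bp were counted for every gene, whatever their score, in Python 3.11.15 with NumPy 2.4.6, SciPy 1.17.1 and pandas 2.3.3. Genes were 1 interval each in the GENCODE annotation of NCBIM37, and 0 reads ran past the end of a chromosome of that build. Densities have exact Poisson intervals, ratios exact binomial (Clopper-Pearson) intervals, and differences of log2 ratios normal intervals from their 4 counts. All cover counting error only, and amplified reads are not independent molecules. Shares of all genes were taken over protein-coding genes with at least 20 reads in the pair of libraries. For GC content, the median of genes in the same 1% step was subtracted. The calculation was tested on simulated data. Figures were drawn with matplotlib 3.10.9.

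Groups came from the labels. The members, gene lists and tests were chosen with earlier results of these data known. Named were all 10 genes, each ligand and related receptor, overlapping genes, and the highest and lowest gene of each other list by mean ratio. Small noncoding or pseudogene overlaps, Ncr3-ps, U1 and U3, and Hmgxb3, which covers 3.28% of Csf1r, had no further analysis. Listed genes Spi1 and Map2 were found under older symbols, and Tie1 is in 2 lists. Sequences are from NCBIM37.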

Additional observations from a re-analysis of the deposited data

Results flagged for a closer look

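The gene body of Csf1r had an H4K5ac over input ratio below 0 in FC and above 0 in CON, with neither interval including 0. The FC log2 ratio less that of CON was -0.66 (-0.91 to -0.42), an interval of counting error between single libraries, and a difference between the groups of mice was not tested. Over IgG-IP the same difference was 0.38 (0.02 to 0.74), in the opposite direction. Less the median of genes with similar GC content, the ratio to input was below 0 in both groups, at -0.48 in FC and -0.36 in CON, and FC over CON of H4K5ac less that of input, centred in the same way, was -0.15. Input over this gene was denser in FC than in CON by a log2 ratio of 0.93, and the part of input in the result was not tested further.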

How the results depend on the processing

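Counts here are of the 10 genes, and causes were not tested unless a setting makes fewer calls by construction. Of 196 counts under other settings 135 were within 1.5 times the main count, and 846 of 992 single values were rated the same. The rating meant that the new value lay within the counting interval of the main value. For values less the flanks or the rest of Med12l, it meant that the gene body ratio lay within the interval of the difference. Leaving out the filter on low counts, or taking all annotated genes, changes only the shares of all genes. Counts and values of the 10 genes then stay the same by construction, as single values do with a fold of 2. These cases are among the 135 and the 846. Percentages are shares of all genes under the same setting. With 1 read per position and strand, 2 gene bodies in FC (21.6%) and 2 promoters in CON (42%) were higher than input. Over IgG-IP, 1 gene body in CON (13.6%) and 1 promoter in FC (18.3%) were lower, and in CON 2 promoters were higher (47.3%) and 0 lower (19%). With a score of at least 20, 1 gene body in CON (14%) and 1 promoter in FC (18.6%) were lower than IgG-IP. Less the median of all genes, 0 and 4 gene bodies were higher and lower than input in FC (11.1% and 24.9%) and 0 and 3 in CON (11.6% and 26%), 6 promoters were lower in FC (27.2%), and 0 and 3 were higher and lower in CON (17.3% and 28.9%). Over IgG-IP these were 1 and 3 gene bodies in FC (20.1% and 25.9%) and in CON (15.3% and 25.2%), and 2 and 5 promoters in FC (23.8% and 30.1%) and 1 and 3 in CON (21.1% and 29.8%). Less the median of the same GC content, 0 and 4 gene bodies were higher and lower than input in FC (10.6% and 24.5%) and 0 and 3 in CON (10.4% and 24.6%), with 6 promoters lower in FC (23.7%) and 0 and 4 in CON (16.6% and 23.9%). Over IgG-IP these were 0 and 4 gene bodies in FC (14% and 24.1%) and 0 and 3 in CON (12% and 23.9%), and 0 and 5 promoters in FC (21.4% and 24.7%) and 0 and 3 in CON (19.6% and 25.2%). With a fold of 2, 0 and 0 gene bodies were higher and lower than input in FC (4.09% and 11.7%) and in CON (14.5% and 11.4%), 1 promoter was lower in FC (11.9%), and 0 and 0 in CON (19.3% and 14.5%). Over IgG-IP these were 2 and 0 gene bodies in FC (33.5% and 8.35%), 2 higher gene bodies in CON (25.1%), 2 higher promoters in FC (35.8%) and 1 and 0 promoters in CON (29.2% and 13.8%). A promoter of 2 kb gave 1 in FC (43.1%) and 4 in CON (53.5%) higher than input, and 2 kb on both sides of the TSS gave 1 in FC (40.7%). Without bases of other genes, which leaves no base of P2ry12, 2 promoters in CON (40.4%) were higher than input, 0 in CON (21.8%) were lower than IgG-IP and 1 was higher in FC than in CON (6.73%). For H4K5ac in FC over CON, 2 gene bodies (16.1%) and 2 promoters (19.1%) were lower less the input ratio, and 1 promoter was higher (19.7%) and 2 were lower (9.86%) less the IgG-IP ratio.

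Called values changed sign over IgG-IP, less the median of all genes, for the Kdr gene body in FC (-0.0055), and less the median of the same GC content for the gene bodies of Csf1r (-0.33) and Cldn5 (-0.66) in FC and Cx3cr1 (-0.062) in CON and for the promoters of Kdr (-0.082) in FC and Cx3cr1 (-0.076) and Kdr (-0.11) in CON. Less their own flanks, a setting chosen after seeing the data, Aif1 (-0.10) and P2ry12 (-0.024) in CON and Tek (0.0087) in FC did so.

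No paired analysis was possible because each group has 1 library per antibody, for which reason no library could be left out either. Depth limits the promoters, with at most 128 H4K5ac reads each, and Cldn5, whose gene body held 19 or fewer.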
